A study of Sus scrofa with 15 samples.

Results

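The VEGF and angiopoietin ligands and receptors, 10 genes of vessel growth signalling, were followed in RNA sequencing libraries of the corpus cavernosum, the erectile tissue, of pigs (Sus scrofa). They were chosen by name: the ligands VEGFA, VEGFB, VEGFC and PGF, the receptors KDR and FLT1, the co-receptors NRP1 and NRP2, and the angiopoietins ANGPT1 and ANGPT2. All 10 were found among the 26654 genes of the deposited tables. The 15 libraries fall into 5 groups of 3, labelled normal, defect, ECs+ implantation, implantation A and implantation B. The study's title concerns a bionic corpus cavernosum and the rebuilding of its vessels. The labels used here give no breed, age, operation, implant material or time point, do not spell out ECs and do not say how implantation A and B differ. Nothing in them tells whether replicates are separate animals, so p-values measure the spread between libraries only, and that spread may be technical. By its design the study compared every pair among normal, defect and implantation A, and compared ECs+ implantation with implantation B. Comparisons of implantation B with implantation A, and of implantation B and ECs+ implantation with normal, are not pairs of that design and were added to place all 5 groups in one order.

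VEGFA is the main growth factor of blood vessels: it binds the endothelial receptor KDR, which carries most of its mitogenic signal, and FLT1, which binds it tightly and signals weakly, in part as a soluble decoy. PGF and VEGFB bind FLT1 and not KDR, while VEGFC drives lymphatic growth through FLT4 and can also act on KDR. NRP1 and NRP2 hold VEGF ligands at these receptors and also bind class 3 semaphorins. ANGPT1, made by perivascular cells, activates the receptor TEK and keeps vessels quiet. ANGPT2, released by endothelium, competes with it at TEK and loosens vessels that are being remodelled. In the corpus cavernosum, endothelium lines the blood spaces and its nitric oxide, made by NOS3, relaxes the smooth muscle around them.

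Total counts ran from 17234169 to 19644793 in 13 libraries, while defect 1 and defect 2 held 207769 and 250178. In those libraries 1 count stood for 4.81 and 3.997 CPM (counts scaled to library size), so a member of this family was read there from 1 to 55 counts, and the fitted values of defect rest mostly on defect 3. In the labels of ECs+ implantation, 1 description field names a normal sample instead, and the group was taken from the titles. Endothelial and smooth muscle markers, which define the labelled tissue, were detected in each group, with none of 15 and none of 10 at 0. Keratinocyte and urothelial markers summed to 2.91 to 3.45 CPM in the ECs+ implantation libraries, with KRT15 and UPK2 at 0, against 804 to 871 in normal and 2047 to 2086 in implantation B. Epithelial markers thus differed between these groups, and their part in the results below was not tested. Levels below are CPM scaled by TMM factors, which correct for differences in RNA composition, unless TPM, a level per transcript length, is named. In bulk tissue fewer cells of a type and less RNA per cell cannot be told apart.

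By edgeR's quasi-likelihood test with Benjamini-Hochberg adjustment, at an adjusted p under 0.05, all 10 members differed between defect and normal, 3 higher and 7 lower. This compares with 63.9% of all genes (32% higher, 31.9% lower) among 17855 tested. Implantation A differed from normal in 8 members, 1 higher and 7 lower, against 64.5% of all genes (32.2% higher, 32.3% lower). It differed from defect in 4, 1 higher and 3 lower, against 41.8% of all genes (20.4% higher, 21.4% lower). ECs+ implantation differed from implantation B in 8, 6 higher and 2 lower, against 75.8% of all genes (37.8% higher, 38.1% lower) among 17204. Of the added comparisons over 18316 genes, implantation B differed from normal in 9 members, 1 higher and 8 lower, against 73.8% of all genes (37.1% higher, 36.7% lower). ECs+ implantation differed from normal in 8, 3 higher and 5 lower, against 71.3% of all genes (35.7% higher, 35.6% lower). Implantation B differed from implantation A in 5, all lower, against 50.8% of all genes (27.2% higher, 23.6% lower). Most genes moved in most of these comparisons, so the counts by themselves say little about the family. Libraries of the groups compared did not overlap for 6 of 10 members in defect against normal (50.7% of all genes), 9 in implantation A against normal (68.8%), 4 in implantation A against defect (40.3%) and 9 in ECs+ implantation against implantation B (77.6%). The same held for 10 in implantation B (75.4%) and 9 in ECs+ implantation (71.3%) against normal, and for 8 in implantation B against implantation A (61%).

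The members did not move as a block. Their median log2 fold change was -0.44 in defect and -0.35 in implantation A, both against normal, and 0.61 in ECs+ implantation against implantation B, while that of all genes was -0.048, -0.025 and 0.018. All comparisons with normal share its 3 libraries. Without defect 3, the calls fell to 4 in defect against normal (VEGFA, VEGFB, FLT1 and NRP1, all lower) and to 1 in implantation A against defect (NRP1, higher). Without the 2 shallow libraries, which leaves defect 3 alone and assumes that it varies like the other groups, the counts were 10 and 4. With limma on log2(TPM + 1), 5 members passed in defect against normal, 3 in implantation A against normal (VEGFA, VEGFB and PGF, all lower), 4 in implantation A against defect (all higher) and 10 in ECs+ implantation against implantation B, 6 of them higher.

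**Figure D1:**
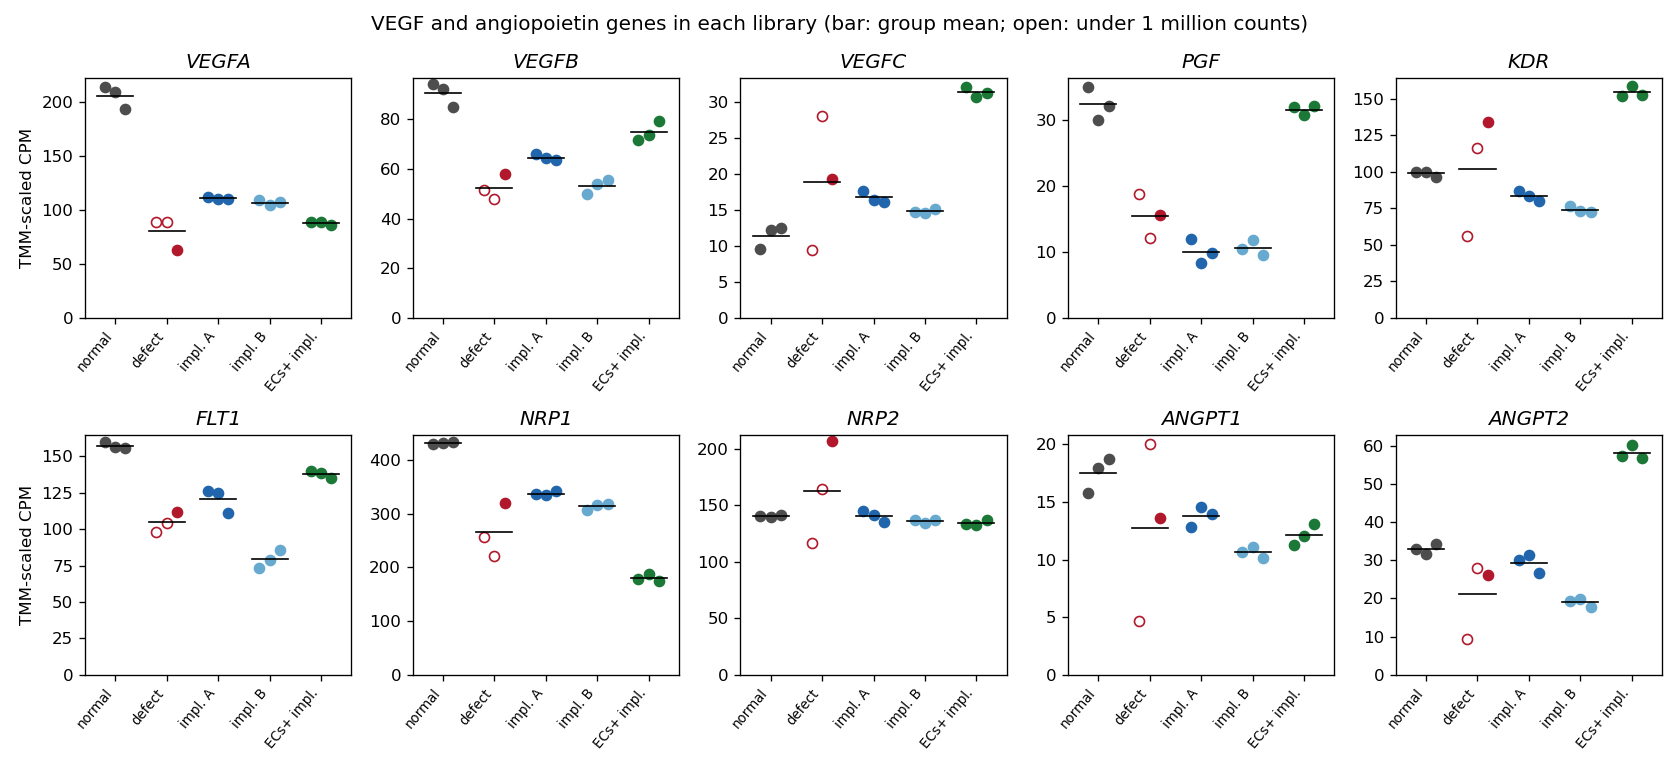
TMM-scaled CPM of each of the 10 members in each of the 15 libraries, on linear axes from 0, with a bar at each group mean and open points for the 2 shallow defect libraries. VEGFA and NRP1 are highest in normal, and KDR, VEGFC and ANGPT2 are highest in ECs+ implantation. The 3 defect libraries spread widely for KDR, NRP2, VEGFC and the angiopoietins.

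Per transcript length, VEGFA and VEGFB were the most abundant members in normal tissue, at 173 ± 11.6 and 172 ± 8.05 TPM (SD, n = 3), followed by NRP1 at 120.4 ± 0.925. PGF, FLT1, NRP2, KDR and ANGPT2 lay between 40.4 and 23.5 TPM, and ANGPT1 (9.91 ± 0.646) and VEGFC (5.28 ± 0.745) were lowest. In ECs+ implantation the order differed: VEGFB led at 111 ± 6.62 TPM, VEGFA stood at 68.6 ± 2.52, and KDR (32.9 ± 1.02), PGF (30.3 ± 0.635) and ANGPT2 (29.9 ± 1.01) lay near NRP1 (38.0 ± 1.57). Of the summed TPM of the 4 VEGF ligands, VEGFA made up 44.2 ± 0.940% in normal, 39.7 ± 0.562% in implantation A, 43.5 ± 1.16% in implantation B and 31.0 ± 1.05% in ECs+ implantation (SD, n = 3). PGF, a ligand of FLT1, held 10.4 ± 0.802%, 5.27 ± 0.786%, 6.17 ± 0.717% and 13.7 ± 0.475% of it in the same groups. The lymphatic ligand VEGFC held 1.36 ± 0.247% in normal and 4.97 ± 0.221% in ECs+ implantation. The ligand pool as a whole was largest in normal, at 391 ± 19.7 summed TPM against 195 ± 26.4 in defect, 256 ± 6.81 in implantation A, 201 ± 5.87 in implantation B and 221 ± 8.07 in ECs+ implantation.

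VEGFA, on chromosome 7 (38746393 to 38762282, Sscrofa11.1), was higher in normal than in every other group. Its 3 normal libraries stood at 214, 209 and 193 CPM, those of defect at 88.8, 88.1 and 62.4, of implantation A at 111, 110.1 and 109.8, of implantation B at 109, 104 and 107 and of ECs+ implantation at 88.4, 88.5 and 85.3. The lowest normal library thus lay well above the highest library of any other group. Against normal the log2 fold change was -1.67 ± 0.0896 (SE, adjusted p = 4.34e-29) in defect, -0.90 ± 0.0587 (SE, adjusted p = 2.30e-24) in implantation A and, in the fit of all groups, -0.95 ± 0.0486 (SE, adjusted p = 4.94e-29) in implantation B and -1.23 ± 0.0489 (SE, adjusted p = 1.96e-35) in ECs+ implantation. VEGFA was 1.71-fold higher in implantation A than in defect (log2 0.78 ± 0.0905 SE, adjusted p = 1.47e-11). Within the defect group its CPM was lowest in defect 3, whose counting interval of 58.5 to 66.6 CPM (95%, exact Poisson, counting error only) lies inside that of defect 1, 53.5 to 139, and of defect 2, 55.2 to 133. Without defect 3 the rise in implantation A was 0.32 and did not pass (adjusted p = 0.438), while the difference of defect from normal was -1.22 and still passed. ECs+ implantation was 1.25-fold lower than implantation B (log2 -0.32 ± 0.0399 SE, adjusted p = 5.20e-10). With library size alone as the scaling that difference was -0.08 and did not pass (adjusted p = 0.0517).

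PGF and VEGFB, the ligands that bind FLT1, were both lower than normal in implantation A and B, and both were higher in ECs+ implantation than in implantation B. PGF (chromosome 7, 98149510 to 98162784) stood at 34.96, 30.0 and 32.1 CPM in normal, 18.7, 12.0 and 15.5 in defect, 11.9, 8.35 and 9.77 in implantation A, 10.5, 11.8 and 9.56 in implantation B and 31.9, 30.7 and 32.1 in ECs+ implantation. By CPM normal and ECs+ implantation overlapped each other and lay above the other 3 groups. By TPM normal, at 40.4 ± 3.06 (SD, n = 3), lay above ECs+ implantation, at 30.3 ± 0.635, without overlap. The log2 fold change of PGF was -1.69 in implantation A against normal (95% interval from -1.89 to -1.49, adjusted p = 1.23e-27) and 1.54 ± 0.0896 (SE, adjusted p = 7.60e-22) in ECs+ implantation against implantation B, a 2.91-fold difference. Between ECs+ implantation and normal it was -0.04 with a 95% interval from -0.19 to 0.12 (adjusted p = 0.707). Under the alternative settings run, that value ranged from -0.41 to 0.04 and never passed. In the defect group PGF rested on 4, 3 and 232 counts. It was called lower than normal (log2 -1.06 ± 0.143 SE, adjusted p = 2.49e-10) and higher than implantation A, which differed from defect by -0.63 ± 0.152 (SE, adjusted p = 4.45e-04), and without defect 3 the values were close to these, at -1.10 and -0.59, but did not pass (adjusted p = 0.147 and 0.666).

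VEGFB (chromosome 2, 7872873 to 7876149) spanned a smaller range, from 90.5 ± 4.76 CPM in normal to 53.2 ± 2.82 in implantation B and 52.5 ± 5.11 in defect (SD, n = 3), which overlapped each other. It was lower than normal in defect (log2 -0.66 ± 0.0903 SE, adjusted p = 1.07e-09) and in implantation A (log2 -0.49 ± 0.0616 SE, adjusted p = 5.05e-11). Its 3 ECs+ implantation libraries, at 71.6, 73.7 and 79.3 CPM, lay above those of implantation B, at 50.1, 53.8 and 55.6, by a log2 difference of 0.46 ± 0.0508 (SE, adjusted p = 1.86e-11). VEGFB overlaps TRPT1 in the RefSeq annotation. TRPT1 held at most 163 counts in a library against 1798 for VEGFB; the use of strand in counting is unknown here.

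VEGFC (chromosome 15, 39037764 to 39136234) went the other way: of the groups with deep libraries only, normal was lowest and ECs+ implantation highest. Its normal libraries stood at 9.59, 12.1 and 12.4 CPM, those of implantation A at 17.7, 16.4 and 16.1, of implantation B at 14.6, 14.5 and 15.1 and of ECs+ implantation at 32.1, 30.7 and 31.2. The deep groups did not overlap, and ECs+ implantation was 2.75-fold above normal (log2 1.46 ± 0.0922 SE, adjusted p = 2.91e-24) and 2.07-fold above implantation B (log2 1.05 ± 0.0797 SE, adjusted p = 4.43e-17). Implantation A exceeded normal by 0.55 ± 0.106 (SE, adjusted p = 3.97e-06). Defect, at 9.35, 28.0 and 19.3 CPM from 2, 7 and 288 counts, overlapped every group except ECs+ implantation, and its rise over normal of 0.76 was 0.77 without defect 3 and lost its call (adjusted p = 0.393). The receptor FLT4, through which VEGFC acts on lymphatic vessels, did not follow it into ECs+ implantation: FLT4 stood at 24.3 ± 1.39 CPM in normal, 53.6 ± 6.59 in defect, 31.2 ± 0.762 in implantation B and 18.1 ± 1.66 in ECs+ implantation. Its log2 fold change was 0.99 ± 0.107 (SE, adjusted p = 9.67e-14) in defect against normal and -0.82 ± 0.0781 (SE, adjusted p = 1.79e-13) in ECs+ implantation against implantation B. The lymphatic endothelial markers, which include FLT4, summed to 60.7 to 63.2 CPM in normal, 360.3 to 404 in defect, 236 to 249 in implantation B and 85.0 to 87.9 in ECs+ implantation. Their part in these values was not tested.

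The receptors KDR and FLT1 were both higher in ECs+ implantation than in implantation B, but KDR lay above normal there and FLT1 below. KDR (chromosome 8, 41809116 to 41856379), the main signalling receptor of VEGFA, stood at 152, 159 and 153 CPM there against 76.7, 73.2 and 72.4 in implantation B, a 2.04-fold difference (log2 1.03 ± 0.0389 SE, adjusted p = 3.51e-29). Normal lay between, at 99.95, 99.97 and 96.5 CPM, and implantation A lay below normal, at 87.1, 83.3 and 80.1. These 4 groups did not overlap. Relative to normal, KDR was higher in ECs+ implantation by 0.64 ± 0.0516 (SE, adjusted p = 9.77e-19) and lower in implantation A, with a log2 difference of -0.25 ± 0.0629 (SE, adjusted p = 4.54e-04). On log2(TPM + 1) with limma the former was 0.22 and the latter -0.14, and neither passed (adjusted p = 0.356 and 0.773). The defect libraries, at 56.1, 116 and 134 CPM, ran from below every other library to above normal, and lay below ECs+ implantation. The call of KDR as higher in defect than in normal (log2 0.38 ± 0.0844 SE, adjusted p = 4.12e-05) turned to -0.16 without defect 3 and to -0.05 on log2(TPM + 1), neither of which passed.

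FLT1 (chromosome 11, 5620698 to 5797095), the high-affinity receptor and decoy, was highest in normal, at 160.1, 156 and 156 CPM. It stood at 140.0, 139 and 135 in ECs+ implantation, 126, 125 and 111 in implantation A, 98.2, 104 and 111 in defect and 73.4, 79.0 and 85.7 in implantation B. Implantation A and defect overlapped, and the other groups were apart. FLT1 was 1.69-fold higher in ECs+ implantation than in implantation B (log2 0.76 ± 0.0428 SE, adjusted p = 6.00e-21) and lower than normal in defect (log2 -0.51 ± 0.0820 SE, adjusted p = 8.73e-08), implantation A (log2 -0.38 ± 0.0581 SE, adjusted p = 1.43e-08) and implantation B (log2 -0.99 ± 0.0520 SE, adjusted p = 2.07e-28). By TPM the order differed, since ECs+ implantation, at 26.5 ± 0.323 (SD, n = 3), lay below implantation A, at 33.1 ± 2.55. Gene counts do not tell the soluble from the membrane form. The ratio of FLT1 to KDR, taken as TPM within a library, was 1.44, 1.40 and 1.45 in normal, 1.30, 1.36 and 1.24 in implantation A, 0.856, 1.01 and 1.06 in implantation B and 0.825, 0.788 and 0.799 in ECs+ implantation. Normal tissue thus held more FLT1 than KDR transcript per length and ECs+ implantation less, and these groups did not overlap. The defect libraries gave 1.45, 0.802 and 0.840, with the first resting on 21 and 12 counts.

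Endothelial marker levels bear on the receptors, which endothelium carries. The 15 endothelial markers summed to 4545 to 4878 CPM in normal, 2618 to 3291 in defect, 2713 to 2763 in implantation A, 2220.0 to 2249 in implantation B and 4402 to 4533 in ECs+ implantation, and 12 rose and 2 fell in ECs+ implantation against implantation B (median log2 fold change 1.37). None of the 15 was higher and 13 were lower in defect against normal, and 0 and 15 in implantation A against normal. Of all genes, 37.8% were higher and 38.1% lower in ECs+ implantation against implantation B. The shares were 32% and 31.9% in defect against normal, and 32.2% and 32.3% in implantation A against normal. Without defect 3, 11 of the 15 markers passed in defect against normal. PECAM1, an endothelial adhesion molecule, stood at 1173 ± 17.0 CPM in ECs+ implantation and 432 ± 2.76 in implantation B (SD, n = 3), a larger difference than that of KDR. The ratio of KDR to PECAM1 by TPM was lowest in ECs+ implantation among the 4 groups of deep libraries only: it was 0.0651, 0.0692 and 0.0648 there, 0.0843, 0.0806 and 0.0786 in implantation B, 0.0953, 0.0891 and 0.0860 in implantation A and 0.0730, 0.0708 and 0.0693 in normal, so that normal lay just above it. The defect libraries gave 0.0521, 0.129 and 0.114, the first of them below ECs+ implantation. CDH5, an endothelial junction protein, stood at 286 ± 8.51 CPM in ECs+ implantation and 162 ± 4.49 in implantation B, a log2 difference of 0.79 ± 0.0308 (SE, adjusted p = 1.78e-28) and smaller than that of KDR. The part of endothelial cell number in the receptor differences was not tested.

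**Figure D2:**
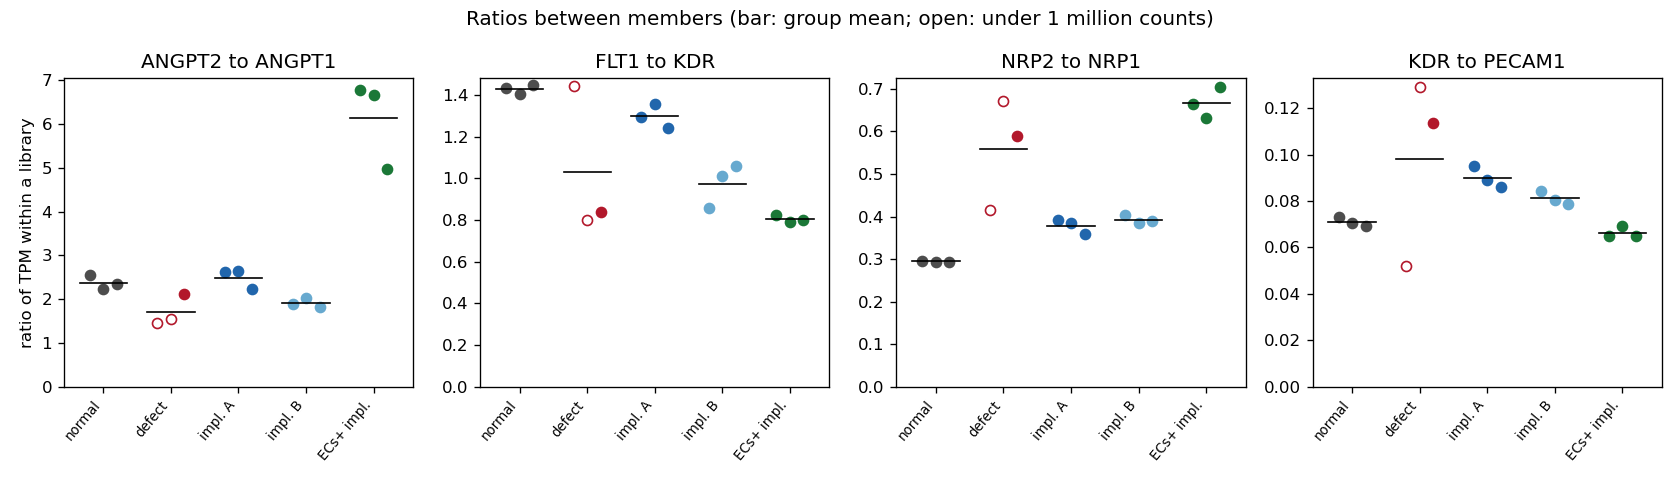
Ratios of TPM between 2 genes within each library (vertical axes, linear from 0), by group, with a bar at each group mean and open points for the 2 shallow defect libraries. The group means of ANGPT2 to ANGPT1 and NRP2 to NRP1 are highest in ECs+ implantation. There FLT1 to KDR and KDR to PECAM1 are lowest among the deep groups. For NRP2 to NRP1 the defect libraries overlap ECs+ implantation.

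The co-receptors NRP1 and NRP2 had different patterns. NRP1 (chromosome 10, 56280673 to 56430832) had the highest TPM of the receptor genes and was lowest in ECs+ implantation. It stood at 429, 432 and 433 CPM in normal, 336, 334 and 342 in implantation A, 307, 316 and 318 in implantation B, 257, 220.2 and 319 in defect and 178, 187 and 175 in ECs+ implantation. The ECs+ implantation libraries lay below all others. NRP1 was 1.78-fold lower in ECs+ implantation than in implantation B (log2 -0.84 ± 0.0296 SE, adjusted p = 2.53e-30) and 2.40-fold lower than in normal (log2 -1.26 ± 0.0465 SE, adjusted p = 3.80e-37), while KDR, FLT1 and the endothelial markers stood higher there than in implantation B. It was also lower than normal in defect (log2 -0.51 ± 0.0814 SE, adjusted p = 5.11e-08) and in implantation A (log2 -0.36 ± 0.0617 SE, adjusted p = 3.77e-07). On log2(TPM + 1) the difference of implantation A from normal was -0.26 and missed the threshold (adjusted p = 0.0521). The annotation places a non-coding gene, LOC102161921, over NRP1, with at most 149 counts in a library against 8395 for NRP1.

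NRP2 (chromosome 15, 108974246 to 109092316) had close mean levels in the 4 deep groups, with means from 135 CPM in ECs+ implantation to 141 in normal. Its log2 fold change was -0.01 in implantation A against normal, with a 95% interval from -0.12 to 0.11. Between ECs+ implantation and implantation B it was -0.05, with an interval from -0.12 to 0.02. These differences depend on the scaling, and the latter was 0.19 with library size alone and -0.30 on log2(TPM + 1), past the threshold in opposite directions. The defect libraries stood at 117, 164 and 208 CPM, and the call of NRP2 as higher in defect than normal (log2 0.49 ± 0.0802 SE, adjusted p = 7.22e-08) fell to 0.01 without defect 3 (adjusted p = 0.964). The ratio of NRP2 to NRP1 does not depend on library scaling. By TPM it was 0.296, 0.294 and 0.294 in normal, 0.391, 0.384 and 0.358 in implantation A, 0.404, 0.384 and 0.389 in implantation B and 0.665, 0.633 and 0.704 in ECs+ implantation. Normal was the lowest and ECs+ implantation the highest of these, and neither overlapped another deep group. The defect libraries gave 0.416, 0.673 and 0.589 and overlapped ECs+ implantation. Those of defect 1 and defect 2 rest on 25 and 41 counts of NRP2 and on 55 of NRP1 each. The deep library defect 3 lay above every library of normal, implantation A and implantation B.

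The angiopoietins also had different patterns. ANGPT2 (chromosome 15, 37544177 to 37600925), the endothelial antagonist of TEK, was 2.98-fold higher in ECs+ implantation than in implantation B (log2 1.57 ± 0.0667 SE, adjusted p = 1.58e-27) and 1.76-fold higher than in normal (log2 0.82 ± 0.0676 SE, adjusted p = 4.21e-18). Its libraries stood at 57.4, 60.2 and 56.7 CPM in ECs+ implantation, 33.0, 31.7 and 34.2 in normal, 30.2, 31.3 and 26.7 in implantation A and 19.4, 19.96 and 17.8 in implantation B. These groups did not overlap. On log2(TPM + 1) the difference of ECs+ implantation from normal was 0.34 and did not pass (adjusted p = 0.498). Implantation A against normal missed the threshold (log2 -0.17 ± 0.0789 SE, adjusted p = 0.057), although normal lay above it in 3 of 3 libraries, and passed with library size alone (-0.23, adjusted p = 0.00978). Defect, at 9.35, 28.0 and 26.1 CPM from 2, 7 and 390 counts, was called lower than normal (log2 -0.36 ± 0.118 SE, adjusted p = 0.00616), while without defect 3 the value was -0.76 and did not pass (adjusted p = 0.269). ANGPT2 lies within the span of MCPH1, which held at most 238 counts in a library against 1096 for ANGPT2.

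ANGPT1 (chromosome 4, 29925203 to 30233434), the agonist of TEK, was highest in normal. It stood at 15.8, 18.0 and 18.7 CPM in normal, 12.9, 14.5 and 13.9 in implantation A, 10.7, 11.09 and 10.1 in implantation B and 11.3, 12.0 and 13.1 in ECs+ implantation. No implantation A library reached the lowest normal library, and the log2 fold change between them was -0.35 ± 0.101 (SE, adjusted p = 0.00175). Between ECs+ implantation and implantation B the log2 fold change was 0.16 ± 0.110 (SE, adjusted p = 0.182), which did not pass, and it turned to -0.28 on log2(TPM + 1) (limma, adjusted p = 0.0223). The call of a lower ANGPT1 in defect (log2 -0.37 ± 0.152 SE, adjusted p = 0.0271) rested on 1, 5 and 203 counts, and without defect 3 the value was -0.44 and did not pass (adjusted p = 0.654). The ratio of ANGPT2 to ANGPT1 by TPM was 2.54, 2.24 and 2.35 in normal, 2.62, 2.64 and 2.22 in implantation A, 1.88, 2.02 and 1.81 in implantation B and 6.78, 6.66 and 4.99 in ECs+ implantation. By counts, which leave out transcript length, the ECs+ implantation libraries gave 5.09, 5.005 and 4.33 and those of implantation B 1.82, 1.80 and 1.76. By either measure ECs+ implantation lay above every other deep library.

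**Figure D3:**
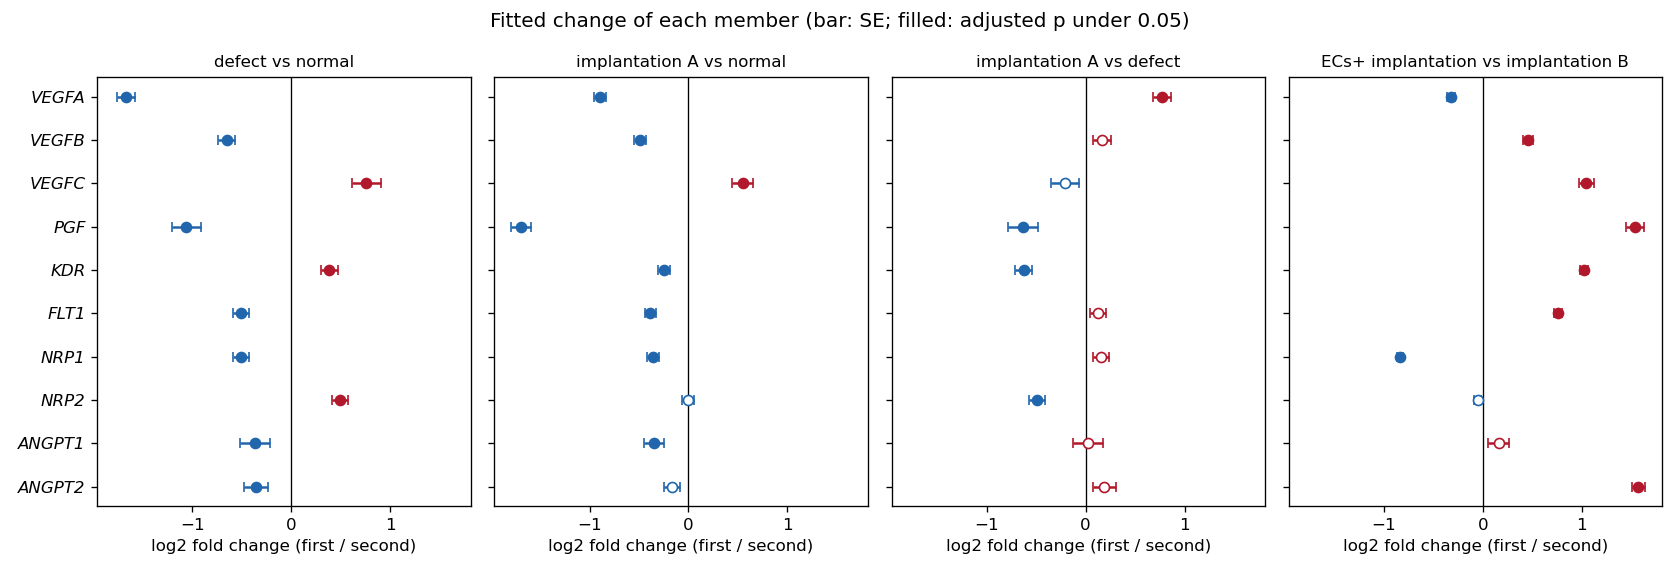
Fitted log2 fold change of each member (horizontal axis, first group over second) in the 4 comparisons of the study's design, with the SE as a bar, red for higher and blue for lower, and filled points for an adjusted p under 0.05. In ECs+ implantation against implantation B PGF, ANGPT2, VEGFC and KDR lie above 1 and NRP1 lies lowest at -0.84.

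Of the other ligands and receptors of the family, 5 of 10 tested genes were higher and 4 lower in defect against normal (median log2 fold change 0.43), where 32% and 31.9% of all genes were, and 4 of 10 tested genes were higher and 5 lower in ECs+ implantation against implantation B (-0.13), or 5 and 4 with library size alone. The angiopoietin receptors were among those higher in ECs+ implantation. TEK stood at 145 ± 4.07 CPM in normal, 119 ± 2.61 in implantation A, 85.0 ± 0.901 in implantation B and 158 ± 0.886 in ECs+ implantation (SD, n = 3). It was higher in ECs+ implantation than in implantation B by 0.86 ± 0.0368 (SE, adjusted p = 8.03e-27). TIE1, the co-receptor of TEK, varied more, from 126 ± 2.45 CPM in implantation B to 457 ± 7.05 in ECs+ implantation (log2 1.82 ± 0.0284 SE, adjusted p = 2.54e-46), and was lower than normal in defect (-1.58) and implantation A (-1.57). ANGPT4, in human a further TEK ligand, had more CPM than ANGPT1 in each group, at 341 ± 8.11 in normal, 83.1 ± 11.5 in defect, 168 ± 4.9998 in implantation A, 39.0 ± 0.891 in implantation B and 151 ± 7.46 in ECs+ implantation. It fell in defect against normal (log2 -1.98 ± 0.0862 SE, adjusted p = 9.54e-35), was higher in implantation A than in defect (log2 0.96 ± 0.0869 SE, adjusted p = 4.72e-16) and was higher in ECs+ implantation than in implantation B (log2 1.91 ± 0.0469 SE, adjusted p = 5.00e-38). Per transcript length ANGPT4 stood at 89.2 ± 1.88 TPM in normal against 9.91 ± 0.646 for ANGPT1. ANGPTL2, an angiopoietin-like protein, and SVEP1, a matrix protein that binds angiopoietins, went the other way in these comparisons: ANGPTL2 had log2 fold changes of 3.11 in defect against normal and -2.77 in ECs+ implantation against implantation B, and SVEP1 of 2.63 and -1.92. Beside them, fibroblast markers summed to 11930.0 to 12434 CPM in normal, 102181 to 125575 in defect, 107879.6 to 110096 in implantation B and 11932 to 12045 in ECs+ implantation, and their part was not tested.

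Neuropilin ligands and their plexin partners were more often higher than lower in defect and implantation A, and more often lower in ECs+ implantation. In defect against normal 7 of 12 tested genes were higher and 4 lower (median log2 fold change 0.85), where 32% and 31.9% of all genes were. In implantation A against normal 8 of 12 tested genes were higher and 4 lower (0.53), beside 32.2% and 32.3% of all genes. Between ECs+ implantation and implantation B 2 of 12 tested genes were higher and 8 lower in the former (-1.08), beside 37.8% and 38.1% of all genes. The guidance ligand SEMA3D stood at 20.8 ± 3.59 CPM in normal and 250.3 ± 13.2 in defect (log2 3.64 ± 0.0905 SE, adjusted p = 6.96e-52), and SEMA3C at 12.1 ± 2.07 and 108 ± 20.9 (log2 3.23 ± 0.107 SE, adjusted p = 3.04e-46). Both were lower in implantation A than in defect, with log2 fold changes of -1.87 and -1.81. The semaphorin receptors PLXNA1 and PLXNA2, which pair with neuropilins, fell in ECs+ implantation against implantation B together with NRP1 (-1.52 and -1.27), as did the ligand SEMA3B (-1.76).

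Below the receptors, genes of the signal chain moved in both directions, as did all genes (32% higher and 31.9% lower in defect against normal, 37.8% and 38.1% in ECs+ implantation against implantation B). In defect against normal 8 of 17 tested genes were higher and 6 lower, with a median log2 fold change of 0.14, but 4 were higher and 10 lower with library size alone, and 2 and 4 without defect 3. With ECs+ implantation set against implantation B 6 of 17 tested genes were higher and 8 lower although the median was 0.08, a split that turned to 9 and 5 with library size alone. PLCG1, the phospholipase that KDR engages, stood at 632 ± 18.8 CPM in normal, 144 ± 17.8 in defect, 226 ± 3.03 in implantation A, 171 ± 2.55 in implantation B and 332 ± 11.4 in ECs+ implantation. It was lower than normal in defect (log2 -2.10 ± 0.0852 SE, adjusted p = 1.15e-36) and in implantation A (log2 -1.49 ± 0.0604 SE, adjusted p = 2.79e-37), and higher in ECs+ implantation than in implantation B (log2 0.92 ± 0.0294 SE, adjusted p = 2.17e-32). NOS3, which makes nitric oxide in endothelium, had values of -1.40, -1.31 and 1.40 in these 3 comparisons, all past the threshold.

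Genes that VEGF is known to induce in cultured endothelium went the other way from KDR and FLT1 in ECs+ implantation. In ECs+ implantation against implantation B 1 of 11 tested genes was higher and 10 lower, with a median log2 fold change of -1.84 against 0.018 for all genes, and 38.1% of all genes were lower. The calcineurin regulator RCAN1 stood at 146 ± 3.99 CPM in ECs+ implantation and 508 ± 4.57 in implantation B (log2 -1.84 ± 0.0274 SE, adjusted p = 5.15e-47), the protease ADAMTS1 at 101 ± 3.49 and 496 ± 18.6 (log2 -2.34 ± 0.0309 SE, adjusted p = 7.33e-49), and the early response factor EGR3 at 23.8 ± 2.01 and 188 ± 2.05 (log2 -3.01 ± 0.0505 SE, adjusted p = 3.44e-46). The single gene that was higher was DLL4, the Notch ligand of endothelial tip cells (log2 0.93 ± 0.0600 SE, adjusted p = 9.24e-20). It is named after its value was seen. The fibroblast marker sum given above was also lower in ECs+ implantation, and its part in these values was not tested. In defect against normal FLT1 and 13 of 15 endothelial markers were lower, while KDR was called higher (log2 0.38), a call that did not hold without defect 3. In this comparison 8 of 11 tested genes of the list were higher and 2 lower (1.19), and 32% of all genes were higher. Without defect 3, an alternative added after seeing the data, 5 were higher and 1 lower.

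**Figure D4:**
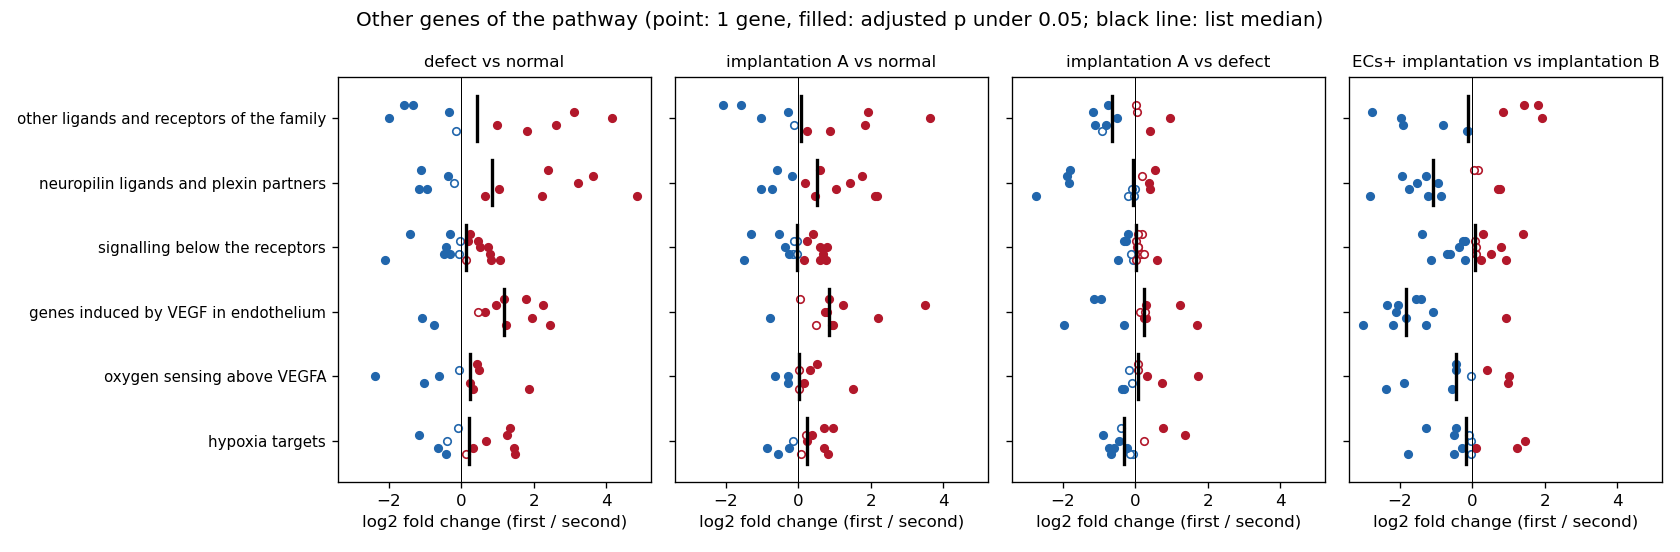
Log2 fold change (horizontal axis) of the other genes of the pathway in the 4 comparisons of the design, grouped by role, with 1 point per gene, filled for an adjusted p under 0.05, and a black line at each list's median. Genes induced by VEGF have their median at 1.19 in defect against normal and at -1.84 in ECs+ implantation against implantation B.

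Oxygen sensing, the best known control of VEGFA, was examined beside it. Among all genes tested, 32% were higher and 31.9% lower in defect against normal, and 37.8% and 38.1% in ECs+ implantation against implantation B. Of the oxygen sensing list 5 of 9 tested genes were higher and 3 lower in defect against normal, but 1 and 2 without defect 3 and 1 and 4 with library size alone, and 3 of 9 tested genes were higher and 5 lower in ECs+ implantation against implantation B. HIF1A, the oxygen-regulated factor that activates VEGFA, stood at 50.6 ± 5.22 CPM in normal, 162 ± 27.2 in defect, 144 ± 0.982 in implantation A, 265 ± 4.71 in implantation B and 52.3 ± 3.04 in ECs+ implantation. Its transcript was thus low in normal, where VEGFA was highest, and in ECs+ implantation, where VEGFA was lower than in implantation B. It rose in defect (log2 1.86 ± 0.0832 SE, adjusted p = 4.15e-36) and in implantation A (log2 1.51 ± 0.0641 SE, adjusted p = 2.56e-36), where VEGFA fell, and it was lower in ECs+ implantation than in implantation B (log2 -2.37 ± 0.0387 SE, adjusted p = 7.20e-46), as VEGFA was. EPAS1, its endothelial relative, was also lower in ECs+ implantation than in implantation B (log2 -1.88 ± 0.0315 SE, adjusted p = 1.34e-44). HIF3A, another gene of this list, was lower in defect than in normal (log2 -2.38 ± 0.141 SE, adjusted p = 2.61e-27), as VEGFA was. It stood at 69.5 ± 5.91 CPM in normal, 44.4 ± 2.62 in implantation A, 18.2 ± 0.384 in implantation B and 6.15 ± 7.01 in defect. EGLN2 was also lower in defect than in normal (-1.02). The part of these genes in VEGFA was not tested. HIF activity depends on protein stability, which RNA does not show. Of other targets of hypoxia, 6 of 12 tested genes were higher and 3 lower in defect against normal, led by LDHA (1.45), P4HA1 (1.49) and PDK1 (1.26), enzymes of lactate, collagen and pyruvate metabolism. These counts were 5 and 6 with library size alone, and 4 and 1 without defect 3. Of the same list 3 of 12 tested genes were higher and 6 lower in ECs+ implantation against implantation B, with NDRG1, a stress response gene, at 1.22 and the glucose transporter SLC2A1 at -1.78.

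Across the 13 deep libraries the members fell into different patterns, given as Pearson correlations of log2 CPM that share library, scaling and group structure and describe mostly the group means. Among the members KDR went with ANGPT2 (0.872) and VEGFB with FLT1 (0.932), while VEGFC ran opposite to NRP1 (-0.957). Over 10321 genes, those most like VEGFA were TMEM200C (0.990), SLC25A22 (0.986) and BCKDHA (0.983). Those most like KDR were AKR1B1 (0.987), CARHSP1 (0.987) and CLU (0.983), and those most like ANGPT2 were PPP2R5A (0.983), HNRNPL (0.982) and INPP5A (0.982). FLT1 was nearest to ZNRF1 (0.980), CHST15 (0.977) and LAYN (0.976), and ANGPT1 to GIPC3 (0.947), SRRM1 (0.945) and KIF6 (0.938). No endothelial marker of the list used here was among these 15 genes. Only the nearest 3 genes per member were kept, so the relation of the members to those markers was not tested.

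Implantation B and implantation A, the implant groups without ECs+ in their label, differed in 5 members. ANGPT2 (log2 -0.63 ± 0.0796 SE, adjusted p = 2.08e-10) and FLT1 (log2 -0.60 ± 0.0526 SE, adjusted p = 1.44e-16) were lower in implantation B, as were ANGPT1 (-0.38), VEGFB (-0.28) and KDR (-0.17). VEGFA (log2 -0.05 ± 0.0501 SE, adjusted p = 0.404), PGF (log2 0.08 ± 0.111 SE, adjusted p = 0.597) and NRP2 (log2 -0.05 ± 0.0496 SE, adjusted p = 0.45) did not pass. Neither did NRP1 (log2 -0.10 ± 0.0459 SE, adjusted p = 0.0515) and VEGFC (log2 -0.18 ± 0.0955 SE, adjusted p = 0.113). The libraries of NRP1, VEGFC and VEGFA were nonetheless lower in implantation B without overlap. NRP1 passed under 14 of 27 alternative settings and VEGFC under 6. The number of calls rose to 9 with library size alone or upper quartile factors and to 8 and 9 without normal 2 or normal 3, which are not compared here and enter the fit only through the scaling, the filter and the shared spread. On log2(TPM + 1) 3 passed, and ANGPT2, at -0.81, did not (adjusted p = 0.142). ANGPT2 and FLT1 were lower in implantation B by CPM without overlap, beside an endothelial sum that was also lower there, as given above. The part of endothelium in these values was not tested.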

How the data were processed

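RNA of pig penile corpus cavernosum was sequenced in 15 libraries, 3 in each of 5 groups taken from the sample titles. Per the submitters' processing notes the tools were fastp, HISAT2, HTSeq and DESeq2, with the Sscrofa11.1 genome. Their versions, and whether counting used strand, are not given in the sources used here. The authors deposited 1 table with raw read counts per gene and TPM (transcript levels scaled by length and library) for each library, and how the TPM were made is not given there either. Positions, neighbours and overlapping genes came from the RefSeq gene table of Sscrofa11.1, in which 26630 of the 26654 symbols were found.

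Counts were tested with edgeR 4.0.16 (R 4.3.3): TMM factors, filterByExpr, robust quasi-likelihood fits, and Benjamini-Hochberg adjustment over all genes tested. Normal, defect and implantation A were fitted together (9 libraries), ECs+ implantation and implantation B together (6), and the 3 added comparisons in a fit of all 15. An adjusted p under 0.05 counted as a call. SEs and 95% intervals are Wald values. CPM levels use TMM factors over 15 libraries. Intervals on counts are exact Poisson and cover counting error only. The code was tested on simulated data.

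The members and lists were chosen with earlier results of these data known. Named beyond the members were, of each pathway list, its counts and up to 3 tested genes with the smallest adjusted p in the comparison described, PECAM1, CDH5, TEK, TIE1, FLT4 and NOS3 in any case, and the 3 genes nearest in pattern to VEGFA, KDR, FLT1, ANGPT1 and ANGPT2 by Pearson correlation of log2 CPM over libraries with over 1000000 counts, among genes with a mean log2 CPM of at least 3. Genes that were leading in 1 comparison are also given in others. DESeq2 1.42.0, limma 3.58.1, other scalings, filters, pseudocounts and left-out libraries were alternatives.

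Replicate numbers did not pair the libraries: of 30 pairs of same-numbered libraries, 1 had deviations correlated over 0.1.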

Additional observations from a re-analysis of the deposited data

How the results depend on the processing

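For the 70 combinations of member and comparison, 28 kept their direction and side of the threshold under every alternative run, 24 lost a call under at least 1 and 9 changed sign under at least 1. In defect against normal 10 members were called, but 4 with limma-voom and 5 on log2(TPM + 1) or log2(TPM + 0.1), and leaving out 1 library gave 4 to 10, the 4 without defect 3. In implantation A against defect 4 were called, but 7 with library size alone or RLE factors, 8 with only the 2 groups fitted and 1 with limma-voom, and leaving out 1 library gave 1 to 4, the 1 without defect 3. In implantation A against normal 8 were called, but 3 on both TPM scales, and leaving out 1 library gave 8 to 8. In implantation B against implantation A 5 were called, but 9 with library size alone or upper quartile factors and 3 on both TPM scales, and leaving out 1 library gave 4 to 9. In ECs+ implantation against implantation B the 8 calls stayed within 8 to 10 under all alternatives, and within 8 to 8 leaving out 1 library. Against normal, leaving out 1 library gave 8 to 9 calls in ECs+ implantation and 9 to 10 in implantation B. The cause of these differences was not tested.

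Log2 fold changes that changed sign were few. KDR in defect against normal was -0.054 and -0.058 on log2(TPM + 1) and log2(TPM + 0.1), and ran from -0.16 (without defect 3) to 0.43 leaving out 1 library. VEGFC in implantation A against defect was 0.099 with library size alone and 0.070 and 0.092 on the TPM scales, and ANGPT1 there ran from -0.017 to 0.094 leaving out 1 library. NRP2 in implantation A against normal was 0.018 without a filter, 0.089 and 0.091 on the TPM scales and 0.0079 with only the 2 groups, and ran from -0.025 to 0.028. In ECs+ implantation against implantation B, NRP2 was 0.19 with library size alone and 0.0039 with upper quartile factors, and ANGPT1 was -0.28 and -0.32 on the TPM scales. PGF in implantation B against implantation A was -0.17 with library size alone and -0.11 and -0.12 on the TPM scales, and ran from -0.037 to 0.23. NRP2 in implantation B against normal ran from -0.21 to 0.0028. PGF in ECs+ implantation against normal was 0.033 with limma-voom and ran from -0.17 to 0.037.

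Scaling moved the background too. Higher and lower genes numbered 5715 and 5692 in defect against normal, but 3456 and 8894 with library size alone, where the median of all genes was -0.41, and 2562 and 5442 on log2(TPM + 1), where it was -0.28. They numbered 3642 and 3823 in implantation A against defect, but 7931 and 1761 (median 0.33) and 4694 and 959 (median 0.35). In ECs+ implantation against implantation B they numbered 6501 and 6547, but 8687 and 4894 (median 0.26) and 4347 and 8399 (median -0.17). In implantation A against normal they numbered 5755 and 5767, and 2231 and 1068 on log2(TPM + 1). A fit with the replicate number as a block left the member counts at 10, 4, 8 and 8 in the study's 4 comparisons and 5, 9 and 8 in the added ones. The pairing was not taken as real, since a library was nearest to its own number in no more than 14 of 60 checks. Depth limits the defect group most, as PGF, VEGFC, ANGPT1 and ANGPT2 rest on 1 to 7 counts in each shallow library.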

Other observations

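Markers of the cells around the vessels had their own orders. The 10 pericyte and smooth muscle markers summed to 6781 to 6836 CPM in implantation A, above 4891 to 5295 in normal, 3759 to 4617 in defect, 4139 to 4184 in implantation B and 4453 to 4608 in ECs+ implantation. In implantation A against normal 7 of them were higher and 2 lower, beside 32.2% and 32.3% of all genes. ANGPT1, which such cells are known to make, was lower there, and their part in its level was not tested. The 8 macrophage markers summed to 801 to 807 CPM in implantation B and 268 to 278 in ECs+ implantation. They summed to 345 to 374 in normal, 659 to 911 in defect and 251 to 262 in implantation A. In ECs+ implantation against implantation B 7 of them were lower and 1 higher (median log2 fold change -1.41), beside 38.1% and 37.8% of all genes. Macrophages are a known source of VEGFA and can carry NRP1, both of which were lower in ECs+ implantation than in implantation B. Implantation A held more of both than ECs+ implantation, with VEGFA at 110 against 87.4 CPM and NRP1 at 337 against 180. Normal held the most of both, at 205 and 431 CPM. The part of macrophages in these values was not tested.

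Set against normal, implantation B and ECs+ implantation differed in the genes that VEGF is known to induce. In implantation B 10 of 11 were higher and 1 lower (median log2 fold change 1.77), where 37.1% and 36.7% of all genes were. In ECs+ implantation 7 were higher and 2 lower (0.40), beside 35.7% and 35.6% of all genes. The list's counts in ECs+ implantation turned to 3 and 2 with library size alone and to 1 and 1 on log2(TPM + 1). Both comparisons use the same normal libraries.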
